A study of Drosophila melanogaster with 2 samples.

Results

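The peaks described here are those of E(spl)m8-HLH that stood close together. They were chosen by position among the peaks of the optimal set, the deposited list that keeps peaks seen reproducibly in the replicates. A peak was selected when at least 4 other optimal summits lay within 10 kb on either side on the same chromosome arm, and selected peaks at most 10 kb apart were joined into a locus. The rule took 1321 of 6152 optimal peaks, or 21.5%, and joined them into 262 loci. The other 4831 optimal peaks are used only for comparison. Because the positions chose the members, the number and density of peaks are given as a description with no test.

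The protein was E(spl)m8-HLH carrying GFP at its C-terminus, expressed in a stable transgenic Drosophila melanogaster line, and chromatin was immunoprecipitated with an antibody to GFP and sequenced. The material was 1 group of 2 biological replicates, numbered 2 and 3, of whole embryos of mixed sex at 4 to 14 h, with chromatin sonicated to fragments of 200 to 800 bp. The age comes from the source name, since the separate age field of both samples holds a value that cannot be read as an embryo's age. No other genotype, treatment or stage was compared, and the control library was not analysed here. The labels name neither the promoter that drives the fusion nor the extent of the transgene, and sequence from the inserted gene cannot be told apart from that of the native one. A whole embryo mixes all its cell types, so a peak does not say in which cells the DNA was bound.

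E(spl)m8-HLH is a transcriptional repressor of the Hairy and Enhancer of split family, whose basic helix-loop-helix proteins bind E-box and N-box DNA and recruit the corepressor Groucho. Its gene lies in the E(spl) complex, where related repressor genes stand beside genes of the Bearded family, whose small proteins inhibit the ubiquitin ligase Neuralized. Notch activates the complex through Suppressor of Hairless in cells that receive a Delta signal, and the repressors then hold off proneural genes, so that neighbouring cells do not all become neural precursors.

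The DNA under the strongest summits of the E(spl) repressor genes is shown first, because this locus held the most members. Each sequence is the plus strand of dm6 from 50 bp before to 50 bp after the summit, read from the RefSeq Release 6 genome. Capitals mark matches on either strand to CACGCG and CACGTG (sites of the Hairy and E(spl) class), to the N-box CACNAG, to CAGCTG or else CAGGTG (E-boxes of proneural proteins), and to GTGNGAA, the core of a Suppressor of Hairless site.
E(spl)mgamma-HLH, chr3R:26002614-26002714: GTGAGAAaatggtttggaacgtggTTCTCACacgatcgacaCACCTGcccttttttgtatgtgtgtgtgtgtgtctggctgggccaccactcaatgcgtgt
E(spl)mbeta-HLH, chr3R:26006090-26006190: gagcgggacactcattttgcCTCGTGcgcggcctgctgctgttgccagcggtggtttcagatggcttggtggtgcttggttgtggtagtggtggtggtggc
E(spl)m3-HLH, chr3R:26021394-26021494: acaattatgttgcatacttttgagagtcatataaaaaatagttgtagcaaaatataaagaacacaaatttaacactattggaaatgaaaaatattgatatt
E(spl)m5-HLH, chr3R:26030627-26030727: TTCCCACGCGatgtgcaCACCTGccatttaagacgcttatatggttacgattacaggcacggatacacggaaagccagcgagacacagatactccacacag
E(spl)m7-HLH, chr3R:26036694-26036794: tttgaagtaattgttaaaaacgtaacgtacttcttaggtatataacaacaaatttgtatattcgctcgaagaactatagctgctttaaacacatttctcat
E(spl)m8-HLH, chr3R:26040043-26040143: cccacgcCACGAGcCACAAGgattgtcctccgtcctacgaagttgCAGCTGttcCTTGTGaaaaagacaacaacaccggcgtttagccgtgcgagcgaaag
The m8 window held the N-box on 3 occasions and CAGCTG once, and the m5 window held CACGCG overlapping GTGNGAA, with CAGGTG beside them. The mgamma window held GTGNGAA at 2 places and CAGGTG at 1, the mbeta window held 1 N-box, and the m3 and m7 windows held none of the 6 strings. Over all optimal peaks the same strings were in 3.32% of windows for CACGCG, 2.00% for CACGTG, 9.93% for CACNAG, 4.84% for CAGCTG, 2.88% for CAGGTG and 4.50% for GTGNGAA. A match is a string of letters and not a measured binding site.

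The windows at the strongest summits of 7 further loci are shown because the genes beside them act in Notch, EGF receptor or growth control, or because their summits were among the strongest. They use the same strand, width and capitals.
tara, chr3R:16224457-16224557: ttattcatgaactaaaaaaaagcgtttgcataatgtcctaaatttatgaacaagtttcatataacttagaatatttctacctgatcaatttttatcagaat
Diap1, chr3L:16049240-16049340: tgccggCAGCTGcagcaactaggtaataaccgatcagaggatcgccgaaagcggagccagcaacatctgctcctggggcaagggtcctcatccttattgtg
bantam locus, chr3L:634783-634883: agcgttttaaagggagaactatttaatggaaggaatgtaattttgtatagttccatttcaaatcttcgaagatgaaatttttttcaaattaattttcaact
Kdm2, in the neur locus, chr3R:9057526-9057626: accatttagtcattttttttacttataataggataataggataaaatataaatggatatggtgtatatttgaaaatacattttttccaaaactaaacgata
Ids to sty, chr3L:3396224-3396324: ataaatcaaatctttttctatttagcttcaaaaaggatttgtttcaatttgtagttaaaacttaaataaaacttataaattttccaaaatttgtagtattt
ush and cbt, chr2L:481011-481111: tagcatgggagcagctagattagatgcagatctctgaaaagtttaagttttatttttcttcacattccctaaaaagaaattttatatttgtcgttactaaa
Raf, chrX:2297671-2297771: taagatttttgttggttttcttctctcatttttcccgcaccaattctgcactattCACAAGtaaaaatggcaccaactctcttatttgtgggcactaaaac
Of these, the Diap1 window held CAGCTG and the Raf window an N-box, and the other 5 held none of the 6 strings. G and C made up 56.4% of the Diap1 window, and between 17.8% (Ids to sty) and 36.6% (Raf) of the others.

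The number of peaks fell between 1 and 6 neighbours with no gap at the threshold. Exactly 3 other summits were within reach of 913 peaks, which were left out, and exactly 4 of 581 peaks, which were taken. These groups just outside and just inside had median signals of 292.7 and 300.7, promoter shares of 34.3% and 32.0% and intergenic shares of 18.9% in each. The signal is a value the authors gave each peak, and serves here for description and for ranks inside a list. The most crowded member had 19 others within 10 kb, and 77 members had 10 or more.

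Most members were in loci of moderate size. Of the 262 loci, 45 held a lone member, whose neighbours fell short of the rule themselves, and 70 held 2 to 4 members, 200 in all. A further 124 loci held 5 to 9 members (744 peaks), and 23 loci held 10 or more (332 peaks). The E(spl) complex held 41 and the next loci 20, 18, 18 and 16. Loci spanned a median of 8.47 kb from first to last summit and together 2.43 Mb, or 1.82% of the 6 arms. Neighbouring members were a median of 1641 bp apart (from 199 to 9984 bp), and 306 of 1059 gaps (28.9%) were under 1 kb. Within the spans there were 5.48 optimal peaks per 10 kb against 0.460 over the arms, which follows from the rule. The weaker pooled peaks, which the rule did not use, stood at 5.14 per 10 kb in the spans and 1.78 over the arms.

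**Figure D1:**
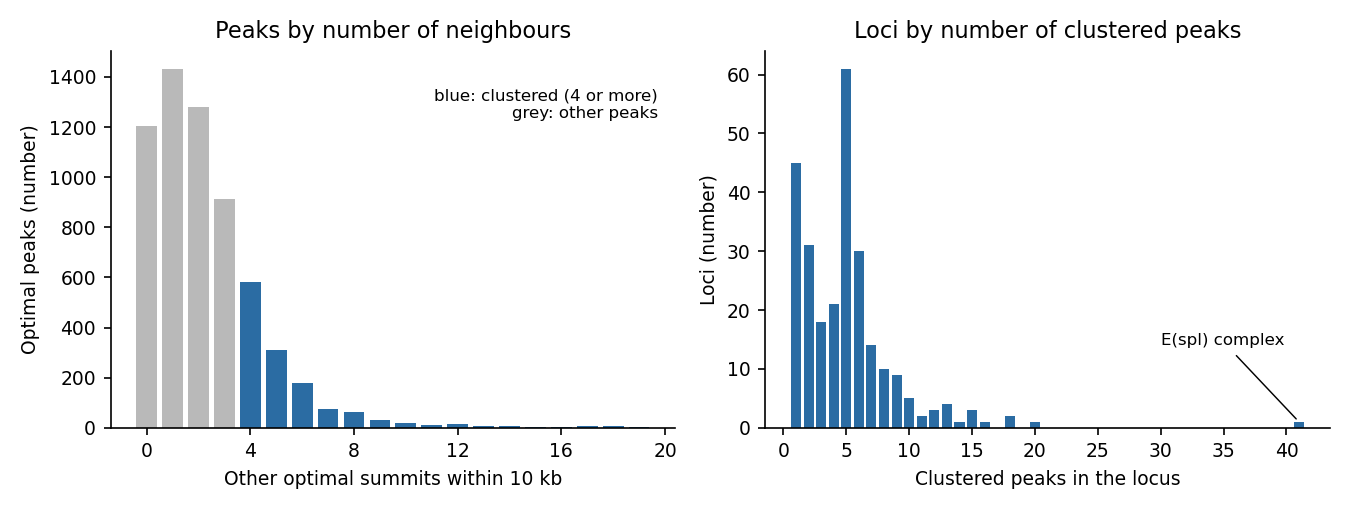
Left, optimal peaks (y axis, number) by how many other optimal summits lay within 10 kb (x axis), with the 1321 clustered peaks in blue and the other 4831 in grey. Right, loci (y axis, number) by their clustered peaks (x axis): 61 loci held 5, and the E(spl) complex stands alone at 41.

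Clustered peaks were on all large arms. They made up 24.5% of the optimal peaks of 2R (95% exact interval 22.0 to 27.2), 23.0% of 3L (20.8 to 25.3), 22.7% of 3R (20.6 to 24.97), 19.5% of 2L (17.3 to 21.8) and 16.9% of X (14.6 to 19.4). Arm 4 had none among 17 optimal peaks, which allows up to 19.5%. The intervals cover counting error only, and peaks of a locus are neighbours and not independent. The X interval lies below those of 2R, 3L and 3R and overlaps that of 2L, whose interval ends just below that of 2R. X also had the fewest optimal peaks per Mb of these 5 arms, at 41.7 against 43.2 to 52.0.

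The E(spl) complex was the locus with the most members and with the most crowded member, 19 others within 10 kb; some short loci had more peaks per kb. Its 41 members spanned 45.9 kb (chr3R:25996608-26042502), a stretch that overlapped 14 protein-coding genes, from CG43116 to gro, which encodes Groucho. Only 2 of the members lay in the body of a protein-coding gene. The median signal was 611, against 311 for all clustered peaks. There were 21 members within 500 bp of a start site, 19 intergenic, 1 in an exon and none in an intron. No summit lay in the body of any of the 11 E(spl) genes, which are 0.676 to 1.31 kb long, and 1 lay in the body of gro. The spacers between these small genes held nearly all of the peaks. Wide intervals held several summits here: the 41 summits came from 25 intervals, with up to 3 in an interval, and 30 summits (73.2%) shared theirs, against 6.59% of all clustered peaks. With overlapping intervals merged the complex held 25 members and the next largest locus 16.

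The right side of the complex held the strongest members by pooled signal, at m8 and m7. The summit 147 bp upstream of E(spl)m8-HLH, the tagged gene, had a signal of 3899.8, with a rank of 21 in replicate 2 and of 1 in replicate 3. The 4 summits nearest to E(spl)m7-HLH lay 59 to 2024 bp upstream of it, between 1589 and 3034, with best ranks of 64 and 3. E(spl)m5-HLH had 5 summits from 211 to 2762, the strongest 942 bp upstream, with best ranks of 58 and 9. The Bearded family gene E(spl)m6-BFM, between m5 and m7, had summits of 2086 and 1187 at 452 and 226 bp upstream, with best ranks of 210 and 16. At gro the summits were 1852 and 481, with best ranks of 74 and 98. So every gene from m5 to gro had a summit within the first 210 of both replicate lists, and only gro ranked better in replicate 2.

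On the left side, E(spl)mbeta-HLH and E(spl)mgamma-HLH were high and E(spl)mdelta-HLH had no summit for which its own start was the nearest. The mbeta summits were 2852 and 1308 at 117 and 323 bp upstream, with best ranks of 34 and 12. The 6 mgamma summits ran from 210.3 to 1907, the strongest in the spacer 2813 bp past the mgamma start, with best ranks of 131 and 47. For mdelta 5 summits lay within 2 kb, and the strongest of these, at 1321, was nearest to CG43116.

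The middle of the complex was lower. The 16 summits nearest to E(spl)malpha-BFM, Kaz-m1 (a gene for a Kazal-type protease inhibitor domain protein), E(spl)m2-BFM, E(spl)m3-HLH and E(spl)m4-BFM all lay between 207 and 819. The best ranks were 615 and 492 at malpha, 641 and 664 at m2, 598 and 627 at m3 and 1087 and 843 at m4, in replicates 2 and 3. The complex had 14 of the 500 strongest optimal peaks, and none of the 14 was nearest to these 5 genes. In both replicate lists the middle Bearded genes and m3 ranked behind every gene from m5 to gro and behind mbeta and mgamma.

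**Figure D2:**
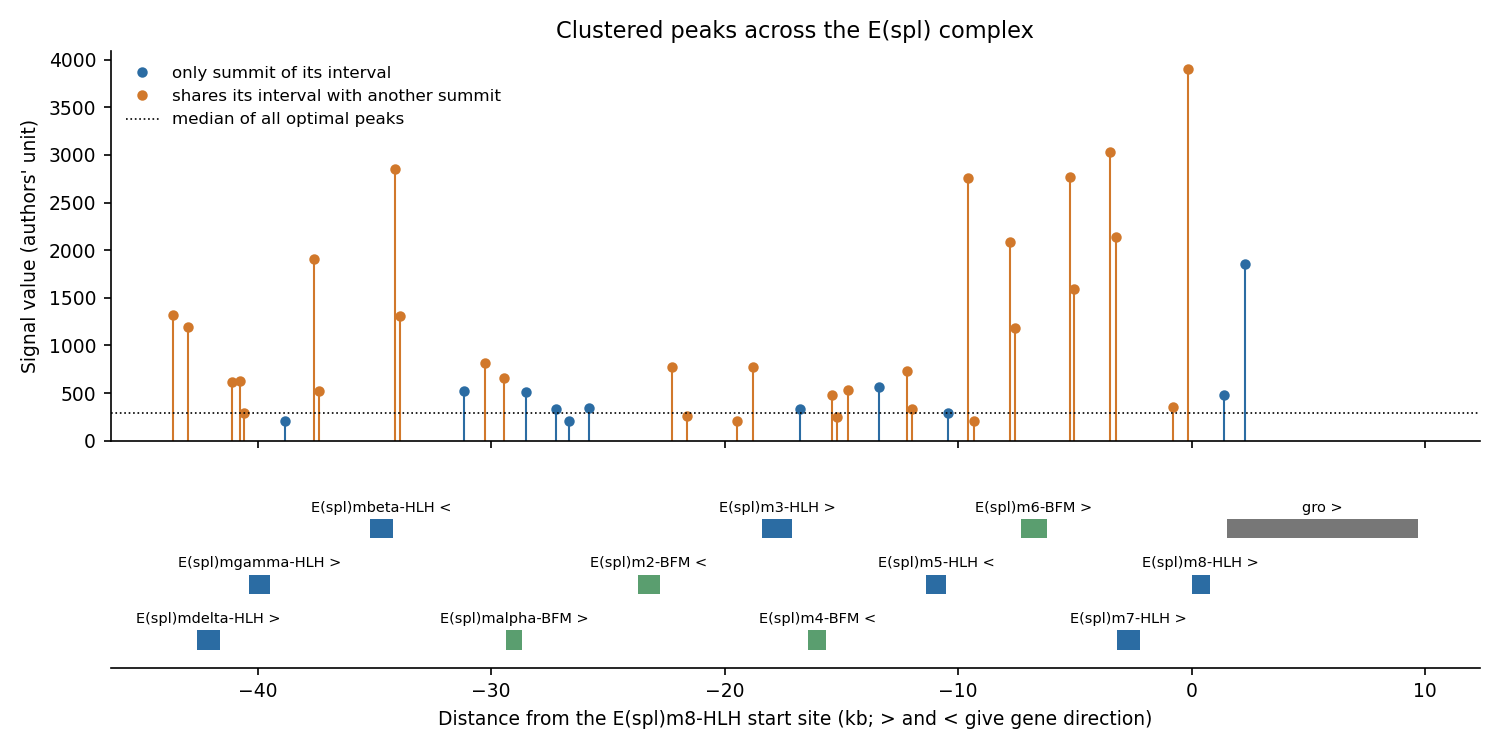
Signal of the 41 members of the E(spl) complex (y axis, authors' unit) by distance from the start of E(spl)m8-HLH (x axis, kb), with summits that share an interval in orange and the median of all optimal peaks (289.8) dotted. Below, repressor genes are blue, Bearded family genes green and gro grey; the strong summits stand around mbeta and mgamma and from m5 to gro, and those from malpha to m4 stay at or below 819.

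The list of 11 E(spl) genes was the only 1 of 22 lists whose genes all had a clustered summit in the body or within 2 kb, with 2 to 5 summits each. Over all 13945 protein-coding genes, 531 (3.81%) had a clustered summit there and 5137 (36.8%) any optimal summit. The genes share peaks with their neighbours and lie in 1 locus, so they are not 11 separate cases.

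Of 20 other genes of the Notch pathway, 3 had a clustered summit (15%, interval 3.21 to 37.9), against 3.81% of all protein-coding genes. Any optimal summit was found at 13 of the 20, against 36.8% of all. The 3 were neur with 8 clustered summits, gro with 3, and O-fut1, which adds fucose to Notch, with 2 (strongest 205). The gro summits belong to the E(spl) complex locus and include the m8 summit of 3899.8, so gro is not a case apart from the complex. None of the 6 other bHLH-Orange repressor genes had a clustered summit, although 3 had an optimal one. Of 9 proneural genes and partners only ase, a proneural gene of neuroblasts, and emc, an inhibitor of proneural proteins, had a clustered summit, 1 each (316 and 188).

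The neur locus (chr3R:9024210-9057576) held 13 members over 33.4 kb. Neuralized is the ubiquitin ligase that sends Delta into endocytosis, and Bearded family proteins inhibit it. Of the 13, 7 were in the body of neur. The strongest there, 1463 in an intron, ranked 392 in replicate 2 and 78 in replicate 3. Another, of 651 (1201 and 713), lay 229 bp upstream of a start site inside the gene. A further member of the 7, at 206, was nearest to a start of hyx, 118 bp from it. The remaining members were at hyx, a Wingless pathway cofactor, at Rel, an NF-kappaB factor of immunity, and at Kdm2, a histone demethylase gene. An intron of Kdm2 held the strongest of the locus at 1887 (113 and 61). The summit at hyx outside the neur body, at 223, counted among the 8 clustered summits in neur or within 2 kb of it. Introns held 8 of the 13 and promoters 5. The locus beside mib1, the other ubiquitin ligase of Delta, came no nearer to that gene than 4.18 kb.

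Genes of sensory organ precursors, the cells that Notch singles out in the peripheral nervous system, were often in the loci. Of 19 such genes, 10 had a clustered summit (52.6%, 28.9 to 75.6) and 18 any optimal summit. The shares over all protein-coding genes were 3.81% and 36.8%. Besides neur they included chn, a zinc-finger repressor that promotes achaete (8 summits, strongest 639), brat, a translational repressor (7, 824), lola, a BTB zinc-finger gene (6, 476), pnt, an Ets factor (5, 728), and phyl, which targets Tramtrack for destruction (4, 1305). The genes of this list had a median length of 21.5 kb, against 2.17 kb over all protein-coding genes, and a longer gene has more room for summits. The part of length in the count was not tested. Of 21 neuroblast and temporal genes, 5 had a clustered summit (23.8%, 8.22 to 47.2): brat, sna, esg, insc and hb, of which only brat had more than 2.

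Loci at genes of signalling pathways other than Notch were among the leading ones. In the Dpp, Wingless and Hedgehog list 8 of 29 genes had a clustered summit (27.6%, 12.7 to 47.2) and 22 any optimal one. The shares over all protein-coding genes were 3.81% and 36.8%. The median length in this list was 13.6 kb, against 2.17 kb over all protein-coding genes, and the part of length was not tested. The locus at shn, a zinc-finger factor through which Dpp represses brk, had all 15 members in introns of that gene (chr2R:11175526-11207222). They ran from 172 to 1034, with a median of 356, and the strongest ranked 321 and 358. The Wingless receptor gene fz2 had 9 clustered summits, up to 546, and nkd, ptc and arr had 6 each, up to 1060, 710.1 and 483. Nkd and Patched restrain Wingless and Hedgehog signalling, and Arrow is a Wingless coreceptor. The locus with Diap1 (chr3L:16015988-16056439, 16 members) also took in Notum, which inactivates Wingless.

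For the EGF receptor pathway, 6 of 18 genes had a clustered summit (33.3%, 13.3 to 59.0). Raf, the kinase, had 9 (strongest 1439, ranks 133 and 205), S (Star, needed to process the ligand) 6, pnt 5, spi, the ligand, 4, aos, an inhibitor, 2, and aop, a repressor, 1. Around edl, whose protein binds Pointed and Yan, there was a locus of 18 members (chr2R:18666293-18695090), with summits of 1102 and 756 in an intron and 601 lying 126 bp upstream. It went on to Sik3, a kinase gene, with 5 members between 186 and 301. The locus between Ids and sty (chr3L:3380634-3398042) had 12 members in 17.4 kb, all intergenic. Its strongest, 1389, ranked 168 and 179, and its last member was 3.11 kb from sty, which encodes the receptor tyrosine kinase inhibitor Sprouty.

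Regulators of transcription and chromatin made up another set of hosts. The locus at tara, a chromatin and cell cycle regulator, held 18 members over 42.3 kb (chr3R:16213127-16255388), 13 of them in the gene. Its strongest summits, 1851 and 1687, lay 1144 and 3139 bp upstream. Their ranks were 78 and 82 in the list of replicate 2, and 94 and 144 in that of replicate 3. A summit of 1458 was in an intron. A locus of 10 members over 17.0 kb (chr2L:468906-485879) ran from CG4297, to which 5 summits of 192 to 612 were nearest, into ush, a partner of GATA factors, with the zinc-finger gene cbt inside it and 5 members. The summit of 3836 there, 1373 bp upstream of cbt in an intron of ush, ranked 8 and 6, and the next at 1186 lay 381 bp upstream of cbt. The locus in sbb, a corepressor gene, had 10 intronic members, led by 2470.4 (ranks 29 and 53), 1591 and 1309 next to each other. Further leading loci were at tna (11 members, up to 723) and at lola with psq, 2 BTB factor genes (12 members, up to 727).

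In the list of Snail-type and other zinc-finger repressors 8 of 13 genes had a clustered summit (61.5%, 31.6 to 86.1) and all 13 an optimal one. The shares over all protein-coding genes were 3.81% and 36.8%. Trl, which encodes GAGA factor, had 5 with a strongest of 2691, and lola, psq and chinmo had 6, 4 and 2. The median length in this list was 36.8 kb, against 2.17 kb over all protein-coding genes, and the part of length was not tested. Of 22 chromatin and Polycomb group genes (median 6.42 kb) 6 had a clustered summit (27.3%, 10.7 to 50.2). Among them were trx (7 summits, up to 1504) and ph-p (4, up to 3742).

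Growth and survival genes stood in 2 of the leading loci. The bantam locus (chr3L:611905-644320) had 15 members and no protein-coding gene over its span. The miRNA gene mir-ban, which promotes growth and blocks apoptosis, had 3 clustered summits within 2 kb, and its precursor transcript lncRNA:CR43334 had 8. Summits ran from 169 to 1248, the strongest with ranks of 261 and 184. In the Diap1 locus, 6 members were in Diap1, the inhibitor of apoptosis, with summits of 1568 (ranks 294 and 62) and 895 (360 and 595).

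Loci without a protein-coding gene under their summits were common. Of the 147 loci with 5 or more members, 33 were of this kind and held 245 members, 84.5% of them intergenic. Those among the 20 leading loci lay between CG44362 and CG6149 (15 members, up to 1383), CG7320 and CheA75a (13, up to 812), CG6168 and CG6163 (13, up to 795) and hng3 and Sf3b3 (13, up to 624), besides the bantam and sty loci. All 6 were on 3L. The span between CG44362 and CG6149 took in CG7560, and that between hng3 and Sf3b3 took in CG13898, with no member summit in either gene. A locus of 14 members over 36.9 kb ran past 4 gustatory receptor genes, Gr93a to Gr93d, and glec, a gene for a carbohydrate-binding protein of glia, with 12 members intergenic (up to 837). Gr93a was the only 1 of 179 chemosensory receptor genes with a clustered summit, and none of 95 cuticle genes had any (a share of up to 3.81% by its interval). Optimal summits of any kind were also few in these lists, at 12 of the 179 (6.70%) and 10 of the 95 (10.5%). Over all protein-coding genes the shares were 3.81% for clustered and 36.8% for any optimal summits. The second locus by members (chr2R:13555844-13585544, 20 members) lay around CG13334, CG42807, CG42808 and CG6191, with 10 intergenic members and a strongest of 1475 (ranks 352 and 74). A locus of 12 ended 0.600 kb from hb, and a locus of 11 lay at CG14434 (up to 1112).

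**Figure D3:**
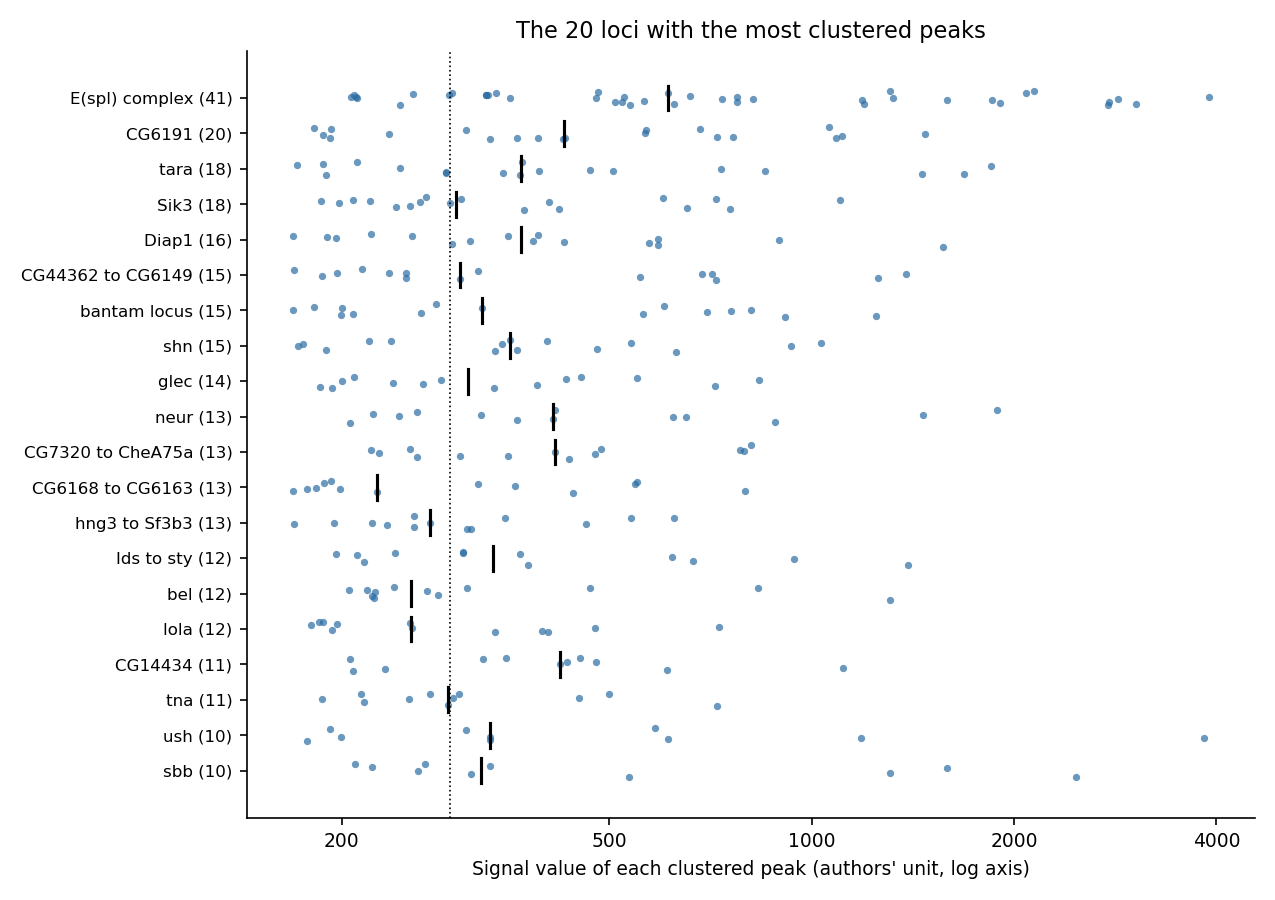
Signal of each member (x axis, authors' unit, log axis) in the 20 loci with the most members (rows, number of members in brackets), named by the gene that holds most summits, by its miRNA gene (bantam) or by the genes on either side. Black bars are medians and the dotted line is the median of all optimal peaks (289.8); every row reaches from near 200 to 600 or more, and the E(spl) complex has the highest median, 611.

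Within a locus the members were uneven. In the 217 loci with 2 or more members, the strongest had a median signal of 737 and the rest 277. Of the strongest, 39.2% were among the 500 leading optimal peaks, against 4.44% of the rest. Taking the highest of several values raises a median by itself, so this is a description of spread. The strongest optimal peak of all, at px on 2R (5071, ranks 1 and 2), belonged to a locus of 5 members in px and had exactly 4 neighbours.

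Many of the loci lay in long genes, which the groupings used here favour. A further 45 loci of 5 or more members lay in 1 gene each (289 members, 83.0% intronic and 16.3% at promoters), and these hosts had a median length of 42.4 kb. The remaining 69 loci were mixed (542 members, 37.6% at promoters). Genes with a clustered summit had a median length of 4.36 kb, those with optimal summits but no clustered one 3.17 kb, and all protein-coding genes 2.17 kb. The 87 genes with 4 or more clustered summits in the body had a median of 29.9 kb, and 66.7% of them were over 20 kb, against 7.26% of all genes. A locus in 1 gene has all its members inside that gene, and these loci spanned a median of 9.65 kb. Their hosts, and genes with several summits in the body, are thus long in part by definition, and the part of length was not tested. Named after their counts were seen, the leaders were CG1677 with 16 in 124.7 kb, shn with 15 in 58.3 kb, tara with 13 in 34.7 kb and tna with 11 in 40.97 kb. PRAS40, a gene for a TOR pathway inhibitor, had 10 in only 16.1 kb, or 6.20 per 10 kb, while hth, a homeodomain gene, had 8 in 132.0 kb, or 0.606 per 10 kb.

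Lists of long genes differed in their counts, with wide intervals. Of 20 genes of neural adhesion and neuronal identity, with a median length of 44.4 kb, none had a clustered summit (interval up to 16.8%) and 16 had an optimal one. Of 15 midline and guidance genes (35.1 kb) a clustered summit was found at 2 (13.3%, 1.66 to 40.5), fra (5 summits) and robo2 (1), receptors for axon guidance cues. Of 11 Hox and homeotic genes (26.9 kb) 2 did (18.2%, 2.28 to 51.8), hth and Antp. The midline and Hox shares are above the 3.81% of all protein-coding genes, but both intervals take in that share. Among the short ribosomal protein genes, 75 of 86 had an optimal summit and 4 a clustered one, RpL8, RpS25, RpL27A and RpS12, a share of 4.65% that is near that of all genes.

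The remaining lists had 1 or 2 genes each in the loci, shares of 6.25% to 25%. The share over all protein-coding genes, 3.81%, lies inside the interval of each. Median gene lengths in these lists ran from 3.05 kb (segmentation) to 18.4 kb (tracheal), against 2.17 kb over all protein-coding genes. The part of length was not tested. There were 2 of 21 segmentation genes (bcd and hb), 2 of 21 mesoderm and muscle genes (kirre, a myoblast fusion receptor, and sna), 2 of 12 glial genes (pnt and loco), 2 of 14 tracheal genes (pnt and esg), 2 of 8 GATA factors and partners (ush and cbt) and 1 of 16 cell cycle genes (E2f1). Several genes stand in more than 1 list, and ush and cbt share summits of 1 locus. Each of these shares has a wide interval, for example 1.17 to 30.4% for 2 of 21.

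Among genes without a protein product, 132 of 1944 long noncoding RNA genes (6.79%) had a clustered summit in the body or within 2 kb, and 10 of 260 miRNA genes (3.85%). The miRNA share is near the 3.81% of protein-coding genes, so the names that follow are a listing only. Besides mir-ban, the miRNA genes were mir-375, mir-967, mir-4968, mir-92a and mir-9377 with 2 summits each, and mir-14, mir-279, mir-281-1 and mir-281-2 with 1 each. The mir-281 genes lie side by side and may share a summit. The miR-92a gene lay by the strongest summit of a locus of 9 members at jigr1 (850.0 in the authors' unit, ranks 478 and 597). A miRNA gene within a protein-coding gene cannot be told apart from its host by position alone.

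Clustered summits had a lower promoter share than the other optimal summits. Within 500 bp of a start site there were 28.5% (377 of 1321, interval 26.1 to 31.1), against 43.4% of the other peaks (42.0 to 44.8) and 40.2% of all optimal peaks. Introns held 42.0% against 37.0%, and intergenic DNA 26.4% against 16.8%. The median distance to the nearest protein-coding start was 2467 bp against 1044 bp, and 30.7% against 24.1% of summits were over 5 kb away. Without the E(spl) complex the promoter share was 27.8%. The intervals of the promoter shares do not overlap, but no test was made, since neighbours in a locus are not independent and the rule itself works on position. The 77 members with 10 or more neighbours differed again, with 51.9% intergenic (40.3 to 63.5) and 14.3% intronic (7.35 to 24.1). Of these 77, 37 belonged to the E(spl) complex, which has no intronic member.

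**Figure D4:**
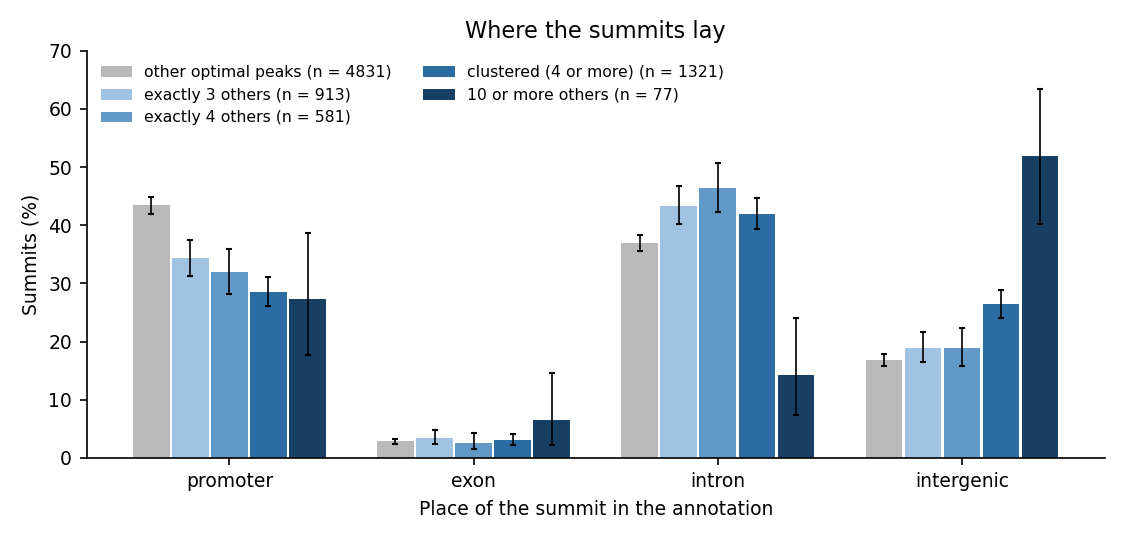
Share of summits (y axis, %) at promoters, in exons, in introns and in intergenic DNA (x axis) for the other optimal peaks, for peaks with exactly 3 and exactly 4 neighbours, for all clustered peaks and for those with 10 or more; error bars are exact 95% binomial intervals. The promoter bars step down from 43.4% to 28.5% between other and clustered peaks, and the intergenic bar reaches 51.9% at 10 or more neighbours.

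Clustered peaks had signals close to those of the rest. Their median was 310.5 (169 to 5071) against 285.2 for the other peaks, and 10.4% of clustered peaks were among the 500 strongest, against 7.51%. For members with 10 or more neighbours the median was 430.4. Median GC content in the 101 bp at the summit was 34.7% for clustered and 32.7% for other peaks, 47.5% for members with 10 or more neighbours and 30.7% for the strongest member of each locus.

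Both replicates carried the clustered peaks. Of 1321, 1316 overlapped a peak of the replicate 2 list, 1319 of the replicate 3 list and 1314 of both (99.5%, 98.9 to 99.8), against 98.5% of all optimal peaks. Each replicate list holds 30000 peaks and fed into the optimal set, so presence in it is a weak requirement. When the rule was applied to the 6152 strongest peaks of each replicate list alone, replicate 2 gave 1218 clustered peaks in 256 loci and replicate 3 gave 1507 in 289. The largest locus held 38 and 41 peaks and the second 17 and 21, and the largest was the E(spl) complex in both.

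A locus counted as found in a replicate when a clustered summit of that replicate lay between its first and last member. All 23 loci with 10 or more members were found in both replicates, as were 111 of the 147 with 5 or more (75.5%). So were 32 of the 70 with 2 to 4 (45.7%) and 1 of the 45 with a lone member. This measure depends on the span. A lone member spans 0 kb, so a replicate summit had to fall on the same base, and loci of 2 to 4 spanned a median of 4.78 kb. The low shares of small loci therefore do not show that they were absent from a replicate. Over all loci 144 of 262 (55.0%) were found in both and 52 in neither. The replicates also weighted the loci differently. In the E(spl) complex 30 of 41 members ranked better in replicate 3, in the second locus 16 of 20 and at tara 15 of 18, while in the bantam locus 12 of 15 and between CG6168 and CG6163 11 of 13 ranked better in replicate 2. Summits that share an interval, or overlap the same replicate peak, carry the same ranks, so they are not separate comparisons. The 41 members of the complex came from 25 intervals and the 20 of the second locus from 17. The 18 members at tara had 18 intervals, but some neighbours there took their ranks from the same replicate peak. Over all clustered peaks present in both lists, 52.7% ranked better in replicate 3, and over all optimal peaks 45.3%. With 2 replicates and no read counts, these differences have no test.

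**Figure D5:**
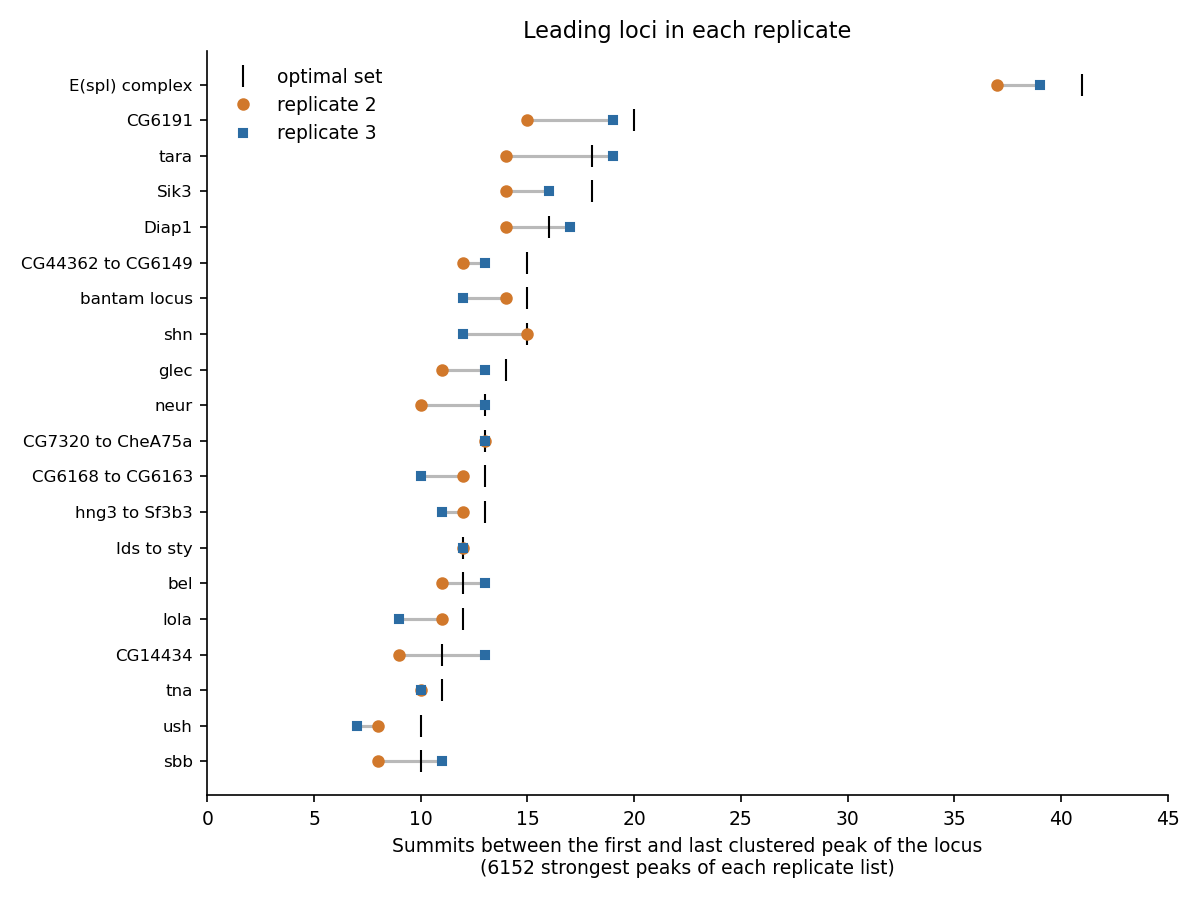
Summits between the first and last member of each of the 20 leading loci (x axis, number) among the 6152 strongest peaks of replicate 2 (orange circles) and replicate 3 (blue squares), with the members in the optimal set as black bars (rows are loci). The E(spl) complex stands at 37 and 39, and every other locus at 19 or fewer in each replicate.

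Searched over all members, the short strings of the E(spl) class were uncommon. In the 101 bp windows CACGCG was in 61 of 1321 (4.62%, interval 3.55 to 5.89), against 2.96% of the other optimal peaks (2.50 to 3.48) and 2.12% of windows 1 kb to either side of the members. CACGTG was in 2.50%, against 1.86% and 1.21%. The N-box CACNAG was in 10.7%, against 9.71% and 11.4%. With 25 bp on either side it was in 6.21% of clustered windows and 5.49% of those beside them, so its order against the flanks depended on the window. The Suppressor of Hairless core GTGNGAA was in 4.47%, against 4.51% and 5.19%. In the E(spl) complex CACGCG was in 4 of 41 windows, CACGTG in 5 and GTGNGAA in 6, and neighbouring windows there can overlap. Without the complex the CACGCG share was 4.45%.

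Strings of other factors differed in either direction. ATCGATA, an element of DREF and BEAF-32 at promoters, was in 1.36% of clustered windows (0.810 to 2.14) and 2.94% of the others (2.48 to 3.46). AGATAA, bound by Serpent-type factors, was in 6.59% and 8.30%, and TAATTA, of homeodomain proteins, in 8.93% and 10.1%. The proneural E-boxes CAGCTG and (as a separate string) CAGGTG were in 5.60% and 2.95%, against 4.64% and 2.86%. GAGAG, read by GAGA factor, was in 11.7% and 10.8%, and CATATG, of Twist-type proteins, in 4.77% and 3.97%. The Zelda site CAGGTAG was in 0.984% and 0.559%, a difference that turned round with windows of 25 bp on either side. That of GGTCACACT (0.606% and 0.517%) turned round with both 25 and 100 bp, and that of CACNAG with 100 bp. A run of AAAAAA was in 23.8% and 25.4%, against 19.2% of the windows beside the members. Those windows held more GAGAG (12.7%) and CAGGTG (3.82%) than the clustered windows. They held less ATCGATA (1.06%), AGATAA (5.90%), TAATTA (6.17%), CAGCTG (4.66%), CATATG (3.29%), CAGGTAG (0.530%) and GGTCACACT (0.114%). This order turned round for GAGAG with 100 bp on either side, and for ATCGATA and CAGGTAG with 25 bp. All strings were counted on both strands, CACGCG can overlap GTGNGAA, and CAGGTAG cannot hold CAGGTG. Promoter share and GC content differ between clustered and other peaks, and the part of either in these shares was not tested.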

How the data were processed

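The authors deposited 4 peak lists on dm6: 1 for each of replicates 2 and 3, a pooled list (30000 peaks each), and the optimal set of 6152, which the deposited readme files, per the file headers, say was drawn from the replicate and pooled lists. Signal values were used as deposited, each being an enrichment score that the authors' caller gave the peak. The −log10 q-value in the deposited lists was 4.21 for every optimal peak and was not used further. Aligner, peak caller and reproducibility threshold were not given in the sources read. The depth of each replicate is unknown, since the lists hold no read totals.

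Summits were counted on 6 arms and annotated with Ensembl release 115, in the order promoter (500 bp), exon, intron, intergenic, with 13945 protein-coding genes. A gene had a clustered summit when 1 lay in its body or within 2 kb. A peak was present in a replicate when at least 1 bp overlapped, and its rank is that of the strongest overlapping peak there. Sequences came from the RefSeq Release 6 genome. Intervals are exact 95% binomial intervals. No test was made, since the design has 1 group. The counting rule was tested on simulated positions.

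The members, the 22 gene lists and the 14 strings were chosen with earlier results of these data known. Text names the 20 loci with the most members, the gene holding the most summits, the gene nearest the strongest summit, and at most 6 genes per list; others are named as chosen after their values were seen. Alternatives changed the neighbours required, the reach, the chaining, the promoter, gene and motif windows, the overlap, merging of intervals, stronger peaks only, and each replicate. Python 3.11.15, numpy 2.4.6, pandas 2.3.3, scipy 1.17.1 and matplotlib 3.10.9 were used.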

Additional observations from a re-analysis of the deposited data

How the results depend on the processing

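The rule sets the number of members and loci. Requiring 3 others gave 2234 peaks in 458 loci, 6 others 428 in 79, a reach of 5 kb 412 in 102, a reach of 20 kb 2914 in 675, and the stronger 50% of optimal peaks 214 in 43. Merging overlapping intervals gave 1068 in 230, and leaving out a replicate gave 1218 to 1507 peaks and 256 to 289 loci. Chaining over 5 kb gave 376 loci and over 20 kb 255. The E(spl) complex was the largest locus in each of these settings, with 34 to 44 members, except that merged intervals left 25, and without a replicate it held 38 to 41. The promoter share was 25% with 6 others and also with 5 kb, 33.2% with 20 kb, 17.4% for a 200 bp window and 38.2% for 1 kb, and 27.8% to 29.4% without a replicate. In each of the 10 alternatives it was below that of the other peaks. Presence in both replicates was 77.2% with 50% overlap of both intervals (all optimal peaks 79.3%), 94.4% with summits within 100 bp (94.1%) and 82.7% among the strongest 6152 (78.8%), so the order of clustered and all peaks turned round with 50% overlap. Genes with a clustered summit were 262 when it had to lie in the body and 384 when they overlapped a locus. Motif shares moved with the window, as given above. No paired analysis was possible because there is 1 group. Unknown depth, 2 replicates and an unanalysed control limit every value here; the cause of these changes was not tested beyond each setting's own construction.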
